A study of Mus musculus with 6 samples.

Results

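The 10 genes described here mark supporting cells of the organ of Corti or carry the Notch signal in them: *Sox2*, *Prox1*, *Fgfr3*, *Notch1*, *Jag1*, *Lfng*, *Hes1*, *Hes5*, *Hey1* and *Hey2*. They were taken by symbol, with counts and FPKM (fragments per kilobase of transcript, scaled to sequencing depth) summed over all transcripts of each symbol, out of 51802 gene symbols in the deposited files. The question was whether supporting cells of *Pou4f3(Δ/+)* cochleae showed a transcriptional response at an age when the study describes mild hearing loss but no marked loss of hair cells. RNA came from whole cochleae of 2 months old mice, with 3 samples of each genotype on a C57/BL6J background, and no cell type was sorted. The wildtype samples were littermates and carried replicate numbers 3, 4 and 5, while the *Pou4f3(Δ/+)* samples carried numbers 1, 2 and 3. *Pou4f3(Δ/+)* mice are heterozygous for a knock-in allele made in W4 embryonic stem cells, in which the end of exon 2 of *Pou4f3*, a hair cell transcription factor, was replaced with a short deletion, a C-to-T change that creates a stop codon and a neomycin cassette between loxP sites. The labels do not say how many animals gave each sample, so the tests measure the spread between these samples, which may be technical.

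Supporting cells surround the sensory hair cells of the organ of Corti, and in the adult mouse cochlea they do not replace hair cells that are lost. During development a hair cell presents Notch ligands to its neighbours, cleavage of the Notch receptor releases its intracellular part, and that part joins RBPJ on DNA and turns on repressors of the Hes and Hey families, which hold the neighbours back from the hair cell fate. *Jag1* is in contrast a ligand of the prosensory region and of supporting cells themselves, and *Sox2* and *Prox1* are transcription factors of the same cells.

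The promoters of the Notch effectors are where RBPJ acts, so the 250 bases before the transcription start of the 3 members whose promoters held the longer form of its core motif are shown here. The sequences are from RefSeq on GRCm38.p6, written 5′ to 3′ on the strand of the gene, with the core motif TGGGAA or its reverse complement TTCCCA in capitals.
Hes5 (chr4:154960673-154960922, plus strand): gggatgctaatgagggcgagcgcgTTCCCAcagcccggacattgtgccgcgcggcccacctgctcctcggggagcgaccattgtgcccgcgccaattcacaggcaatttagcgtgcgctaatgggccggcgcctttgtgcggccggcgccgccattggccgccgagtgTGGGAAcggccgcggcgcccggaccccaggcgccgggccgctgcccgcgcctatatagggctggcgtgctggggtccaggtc
Hey2 (chr10:30842784-30843033, minus strand): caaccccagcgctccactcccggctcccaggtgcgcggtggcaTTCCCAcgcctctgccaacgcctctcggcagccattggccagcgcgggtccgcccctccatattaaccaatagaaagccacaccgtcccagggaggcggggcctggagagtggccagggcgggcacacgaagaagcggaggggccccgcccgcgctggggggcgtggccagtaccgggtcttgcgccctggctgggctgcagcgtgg
Lfng (chr5:140607091-140607340, plus strand): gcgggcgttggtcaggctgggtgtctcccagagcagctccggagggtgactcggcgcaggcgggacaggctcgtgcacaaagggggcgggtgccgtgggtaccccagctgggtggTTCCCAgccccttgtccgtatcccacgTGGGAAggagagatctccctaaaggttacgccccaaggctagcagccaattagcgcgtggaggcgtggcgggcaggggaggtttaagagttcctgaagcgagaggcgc
Of the 10 members, 8 had a promoter in the RefSeq table, with 10 promoters in all, since *Prox1* and *Fgfr3* had more than 1 start. The members without an entry were *Hes1* and *Hey1*. TGGGAA occurred on either strand in 4 of these members, among them *Prox1* at 1 of its starts, and it occurred in 21.6% of 32851 mouse promoters of the same length. The longer form GTGGGAA, which contains the first motif, occurred in 3 members and in 5.42% of all promoters. *Hes5* held 2 copies of the longer form, whose 6 capital letters began 226 and 82 bases before the start, and 0.161% of all promoters held 2 or more. The capitals in *Lfng* began 135 and 108 bases before its start, and those in *Hey2* began 207 bases before its start. A match of letters is a description of the sequence and does not show that RBPJ binds there.

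The 6 samples held 14295069 to 17696784 expected counts each, and their TMM normalisation factors lay between 0.986 and 1.02. The targeted gene *Pou4f3* had 68, 72 and 88 counts in the wildtype samples and 66, 97 and 52 in the *Pou4f3(Δ/+)* samples (log2 fold change -0.06), counts that do not separate the 2 alleles. *Pou4f3(Δ/+)* replicates 1 and 2 stood apart in B cell, T cell and erythroid genes. The summed FPKM of 9 B cell markers was 279 and 320 in them, 160 in *Pou4f3(Δ/+)* replicate 3 and 122 to 152 in wildtype. All 9 B cell markers were higher with an unadjusted p under 0.05 by edgeR, as were 3.5% of all genes. In whole-tissue RNA, fewer cells of a type and less RNA per cell cannot be told apart. Of 15 further markers of supporting cells and the epithelium around them, 14 had more than 3 counts in every sample. *Gjb2*, a gap junction connexin, was at 183 FPKM and *Sox9* at 22.2 FPKM on average. The lowest were *Tecta*, with 3 to 40 counts, and *Tectb*, with 11 to 39. In whole-tissue RNA such detection does not show which cells made these transcripts. *Atoh1*, the transcription factor that starts the hair cell programme, had 0 counts in 5 samples and 2 in *Pou4f3(Δ/+)* replicate 2.

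No difference between the genotypes passed the test in the 9 of the 10 genes that could be tested. In edgeR's quasi-likelihood test over 17136 genes, 0 of the 9 members that passed the filter on low counts had an adjusted p under 0.05, against a background of 0% of all genes. At an unadjusted p under 0.05 there were again 0 of 9, against a background of 7.64% of all genes (1309 genes), and DESeq2 called 0 members and 64 genes in all (0.373%). The CPM (counts scaled to a common library size) of the genotypes overlapped for each of the 9, while 12.7% of all genes did not overlap (6.07% higher and 6.59% lower in *Pou4f3(Δ/+)*). Nor did the FPKM of any of the 10 separate the genotypes, as it did for 12.1% of all genes. Of the 9 members 5 were higher and 4 lower in *Pou4f3(Δ/+)*, with a median log2 fold change of 0.07, beside -0.0027 over all genes and 49.4% of all genes higher. The summed FPKM of the 10 was 73.1 to 76.9 in wildtype samples and 74.2 to 76.6 in *Pou4f3(Δ/+)*. The plot of FPKM by sample shows each of these genes.

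**Figure D1:**
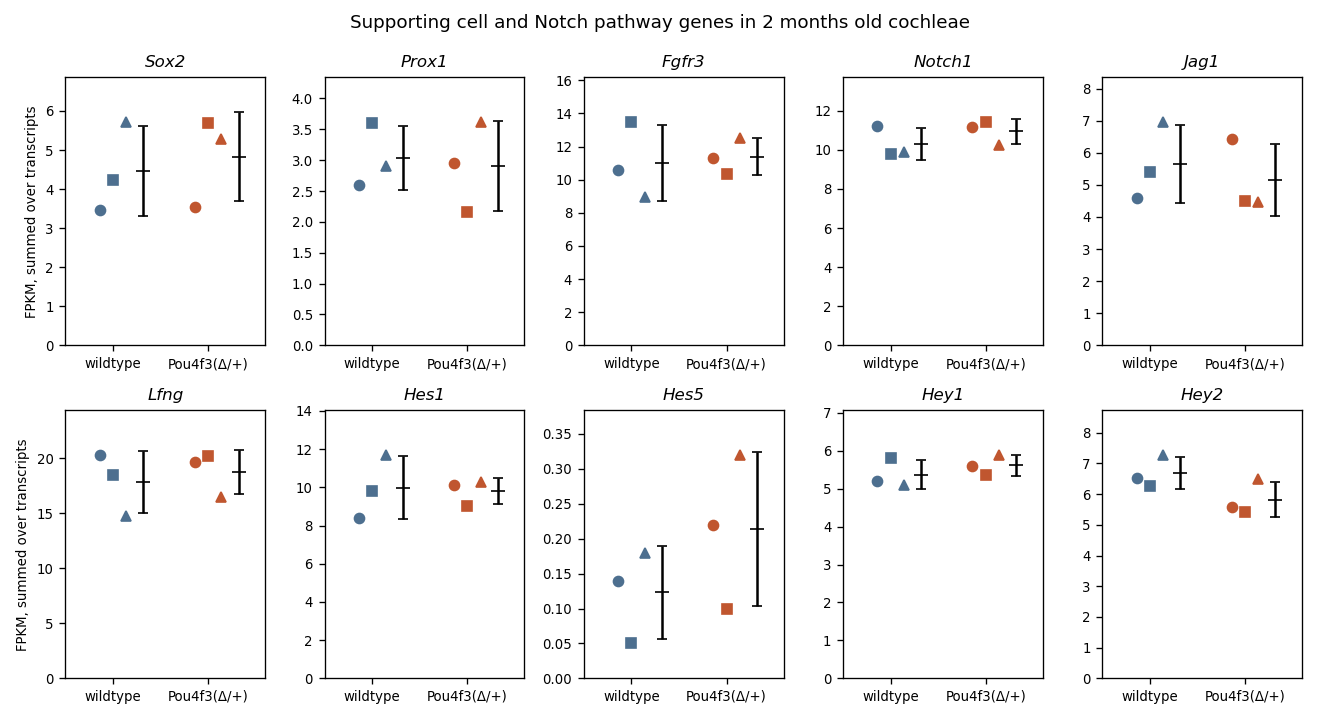
FPKM summed over transcripts (vertical axes, from 0, each gene on its own scale) of the 10 genes in 3 wildtype (blue) and 3 *Pou4f3(Δ/+)* (orange) cochlear samples; circles, squares and triangles are replicates 3, 4 and 5 of wildtype and 1, 2 and 3 of *Pou4f3(Δ/+)*, and bars are mean ± SD. The points of both genotypes overlap in each panel, and *Hes5* stays at or below 0.32 FPKM.

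The precision of each comparison bounds the size of a response that could have been missed. All 9 intervals of 95% held 0. For 8 of the 9 members both ends of the interval lay within 1.5-fold of wildtype, and the exception was *Sox2*, whose upper end was 1.57-fold. The lowest end of any interval was 0.709-fold, for *Prox1*. These intervals apply to the RNA of the whole cochlea, and a change in a small group of cells would be diluted in it by an amount that was not measured.

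*Jag1* encodes the Notch ligand made by supporting cells and lies on chromosome 2 from 137081456 to 137116644 (GRCm38, minus strand). Its level was 4.59, 5.39 and 6.96 FPKM in wildtype samples and 6.44, 4.51 and 4.47 FPKM in *Pou4f3(Δ/+)*. The highest sample was wildtype replicate 5, and the 3 lowest, of both genotypes, lay close together. The log2 fold change was -0.03 (SE 0.15, 95% interval -0.36 to 0.30, edgeR adjusted p = 0.967). The coding transcript Jag1-201 made up 71.6% of the gene's FPKM, with 3.38, 3.61 and 4.49 FPKM in wildtype samples and 4.02, 4.14 and 3.53 in *Pou4f3(Δ/+)*, and the rest came from a transcript with a retained intron, Jag1-202. That second transcript ranged from 0.37 FPKM in *Pou4f3(Δ/+)* replicate 2 to 2.47 in wildtype replicate 5.

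*Notch1* encodes the receptor whose intracellular part acts in the nucleus (chromosome 2, 26457903 to 26516663, minus strand). It had 1673, 1326 and 1464 counts in wildtype samples and 1797, 1453 and 1422 in *Pou4f3(Δ/+)*, the most of any member. In FPKM it stood at 11.2, 9.80 and 9.89 in wildtype samples and at 11.2, 11.4 and 10.2 in *Pou4f3(Δ/+)*. Wildtype replicate 3 was level with the *Pou4f3(Δ/+)* samples, and the other wildtype samples were below all of these. With a log2 fold change of 0.09 (SE 0.08, 95% interval -0.09 to 0.26, edgeR adjusted p = 0.777), *Notch1* had the narrowest interval among the members. The full-length transcript Notch1-201 gave 93.4% of the FPKM.

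*Lfng* encodes Lunatic fringe, a glycosyltransferase that adds sugar to Notch and so changes which ligands activate it (chromosome 5, 140607320 to 140615545, plus strand). It was the most abundant member, with 20.3, 18.5 and 14.8 FPKM in wildtype samples and 19.6, 20.2 and 16.5 FPKM in *Pou4f3(Δ/+)*. The *Pou4f3(Δ/+)* values all lay inside the wildtype range. Its log2 fold change was 0.07 (SE 0.15, 95% interval -0.27 to 0.40, edgeR adjusted p = 0.921). On the CPM scale the 2 samples with the highest *Lfng*, at 40.3 and 35.9, were *Pou4f3(Δ/+)* replicates 2 and 1, the same that had the highest B cell markers, and replicate 3 was lowest at 27.6. The wildtype samples were at 34.6, 35.5 and 29.1 CPM, so *Pou4f3(Δ/+)* replicate 1 was level with wildtype replicate 4. On FPKM the highest sample was wildtype replicate 3. Leaving out replicates 1 and 2 gave a log2 fold change of -0.26, and the part of the B cell signal in *Lfng* was not tested. The coding transcript Lfng-201 made up 71.3% of the FPKM and the non-coding Lfng-203 made up 22.3%.

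The 4 effectors are transcriptional repressors that Notch turns on. *Hes1* (chromosome 16, 30064384 to 30067796, plus strand) was at 8.41, 9.81 and 11.7 FPKM in wildtype samples and 10.1, 9.0 and 10.3 FPKM in *Pou4f3(Δ/+)*. Its *Pou4f3(Δ/+)* values again lay inside the wildtype range, and the log2 fold change was -0.01 (SE 0.15, 95% interval -0.34 to 0.32, edgeR adjusted p = 0.991), the nearest to 0 among the members. *Hey1* (chromosome 3, 8663359 to 8667256, minus strand) was at 5.20, 5.81 and 5.09 FPKM in wildtype samples and 5.60, 5.35 and 5.89 in *Pou4f3(Δ/+)*. Both genotypes spread over less than 1 FPKM and overlapped, with a log2 fold change of 0.08 (SE 0.12, 95% interval -0.18 to 0.35, edgeR adjusted p = 0.865).

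*Hey2*, the effector known to stay on in pillar cells even when Notch is blocked, lies on chromosome 10 from 30832359 to 30842801 (minus strand). It was at 6.53, 6.28 and 7.28 FPKM in wildtype samples and 5.57, 5.42 and 6.48 FPKM in *Pou4f3(Δ/+)*. *Pou4f3(Δ/+)* replicates 1 and 2 were below all wildtype samples, and replicate 3 was above the lowest of them. Its log2 fold change of -0.20 (SE 0.12, 95% interval -0.48 to 0.08) had the lowest p of the members, an unadjusted 0.132 and an adjusted 0.685 by edgeR. Of the 4 members with a negative fold change, *Hey2* was the one whose sign held in all 13 alternative analyses. Its size did not hold: without *Pou4f3(Δ/+)* replicates 1 and 2 the log2 fold change of *Hey2* was -0.068.

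*Hes5*, the effector tied most closely to Notch activity in the embryonic and neonatal organ of Corti (chromosome 4, 154960923 to 154962371, plus strand), was close to the limit of detection. It had 3, 1 and 4 counts in wildtype samples and 5, 2 and 6 counts in *Pou4f3(Δ/+)*, or 0.14, 0.05 and 0.18 FPKM and 0.22, 0.10 and 0.32 FPKM. A count of 3 corresponded to 0.132 to 0.163 FPKM for its transcript, depending on the sample. All of its counts came from the coding transcript Hes5-201. The gene did not pass the filter, and at this depth no difference was detectable: a fit without the filter gave a log2 fold change of 0.72 with a wide interval (SE 0.90, 95% interval -1.17 to 2.61, edgeR adjusted p = 0.821).

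The remaining members mark supporting cells by means other than Notch. *Sox2* encodes a transcription factor of prosensory and supporting cells (chromosome 3, 34650405 to 34652461, plus strand) and had 123, 124 and 202 counts in wildtype samples and 129, 181 and 159 in *Pou4f3(Δ/+)*. Its level was 3.46, 4.22 and 5.72 FPKM in wildtype samples and 3.54, 5.68 and 5.27 in *Pou4f3(Δ/+)*, so that each genotype had samples at both ends of the range. Its log2 fold change was 0.11 (SE 0.24, 95% interval -0.43 to 0.65, edgeR adjusted p = 0.921).

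*Prox1* encodes a homeobox factor of pillar and Deiters' cells that also marks lymphatic endothelium (chromosome 1, 190118035 to 190170714, minus strand). It was at 2.60, 3.61 and 2.91 FPKM in wildtype samples and 2.95, 2.16 and 3.62 FPKM in *Pou4f3(Δ/+)*. The lowest sample was *Pou4f3(Δ/+)* replicate 2, the genotypes overlapped, and the log2 fold change was -0.11 (SE 0.17, 95% interval -0.50 to 0.29, edgeR adjusted p = 0.889). Of 4 lymphatic markers, *Ccl21a* and *Pdpn* had at most 3 counts in every sample, and the summed FPKM of all 4 was 4.82 to 5.46 in wildtype samples and 5.05 to 7.02 in *Pou4f3(Δ/+)*. The 2 that could be tested were *Flt4* (log2 fold change -0.05) and *Lyve1*, which was higher in each *Pou4f3(Δ/+)* sample than in any wildtype sample (log2 fold change 0.74, SE 0.21, edgeR unadjusted p = 0.0068, adjusted p = 0.643), and the part of such cells in the value of *Prox1* was not tested.

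*Fgfr3* encodes a fibroblast growth factor receptor that pillar and Deiters' cells carry (chromosome 5, 33721674 to 33737068, plus strand). It was at 10.6, 13.5 and 8.94 FPKM in wildtype samples and 11.3, 10.3 and 12.5 FPKM in *Pou4f3(Δ/+)*. All *Pou4f3(Δ/+)* values lay inside the wildtype range. On counts the wildtype spread was smaller, with 31.3, 32.8 and 27.9 CPM in wildtype samples and 33.8, 32.3 and 35.7 CPM in *Pou4f3(Δ/+)*, and the log2 fold change was 0.15 (SE 0.10, 95% interval -0.07 to 0.37, edgeR adjusted p = 0.707). Its 17 listed transcripts, of which 8 could be tested, shared the FPKM more evenly than those of any other member. The most abundant by FPKM, Fgfr3-217, gave 28.7%, with 3.24, 4.69 and 2.40 FPKM in wildtype samples and 3.26, 2.41 and 3.28 in *Pou4f3(Δ/+)*, and Fgfr3-209 gave 17.2%. On counts Fgfr3-209 was above Fgfr3-217 in every sample.

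**Figure D2:**
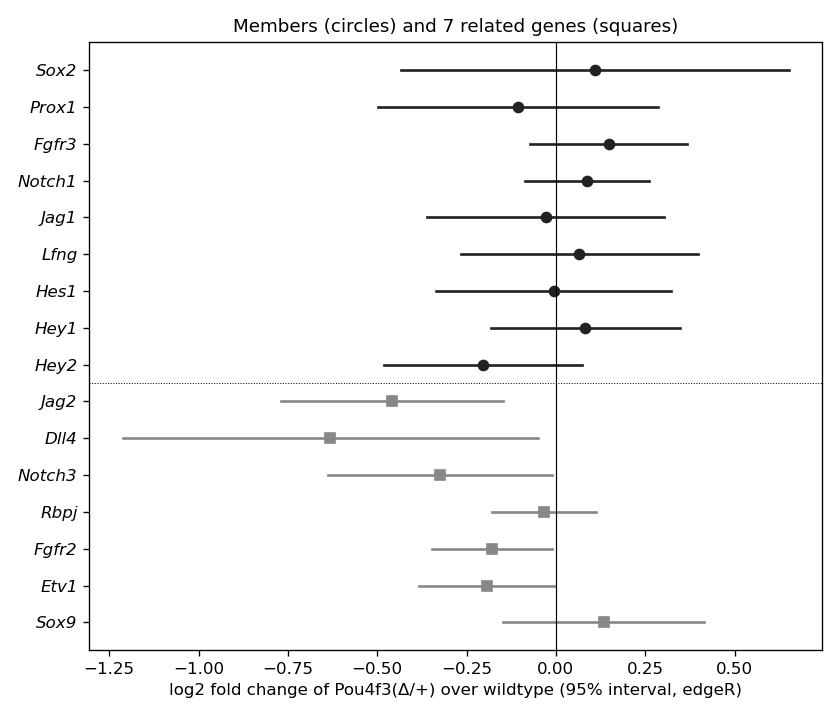
Log2 fold change of *Pou4f3(Δ/+)* over wildtype (horizontal axis) with its 95% interval from edgeR for the 9 members that were tested (circles, above the dotted line) and 7 related genes (squares). The interval of each member crosses 0, and *Sox2* has the widest of them; those of *Jag2*, *Dll4*, *Notch3*, *Fgfr2* and *Etv1* lie below 0 before adjustment for multiple tests.

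Among the transcripts of the members, 49 were listed and 19 tested. None of the 19 had an unadjusted p under 0.05 by edgeR at the transcript level, where 4.14% of 38347 transcripts did, and none had groups that did not overlap on CPM, where 10.7% of all transcripts did. DESeq2 called 0 of the 19 and 130 transcripts in all (0.339%). *Sox2*, *Hey1*, *Hey2*, *Prox1* and *Hes1* each had a main transcript with at least 93.1% of the FPKM. The exons of *Prox1*, *Fgfr3*, *Notch1* and *Hes5* overlap genes on the opposite strand, *Prox1os* in the case of *Prox1*, and since the sources used here do not say that counting used strand, reads of such partners cannot be told from those of the member.

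The members differed far more from each other than between genotypes. Ordered by mean FPKM over the 6 samples, *Lfng* (18.3) was followed by *Fgfr3* (11.2), *Notch1* (10.6), *Hes1* (9.89), *Hey2* (6.26), *Hey1* (5.49), *Jag1* (5.39), *Sox2* (4.65), *Prox1* (2.98) and *Hes5* (0.168). The ranges over samples were separate for 3 neighbouring pairs, *Lfng* above *Fgfr3*, *Hes1* above *Hey2* and *Prox1* above *Hes5*, and they overlapped for the others. Over all tested genes the median of the mean FPKM was 8.83, so 4 members were above it and 6 below. Within a genotype the CPM varied least for *Hey1*, with a coefficient of variation of 4.06%, and most for *Sox2*, with 24.9%. Counting error alone would give 6.89% for *Hey1* and 8.08% for *Sox2*. *Prox1* (18.4%), *Lfng* (15.1%) and *Jag1* (14.7%) also spread well beyond their counting errors of 5.20%, 4.29% and 5.08%.

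The rest of the Notch pathway was followed in a list of 48 genes, of which 43 passed the filter. By edgeR 0 of the 43 had an adjusted p under 0.05. At an unadjusted p under 0.05 there were 3 of 43, where 7.64% of all genes passed in either direction. All 3 were lower in *Pou4f3(Δ/+)*, where 4.14% of all genes were lower at that threshold. Of the 43, 21 were higher and 22 lower, with a median log2 fold change of -0.0041, beside -0.0027 over all genes. DESeq2 called 0 of them.

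The 3 genes lower before adjustment were 2 ligands and a receptor. *Jag2*, the ligand that hair cells make, was at 4.35, 3.25 and 4.76 FPKM in wildtype samples and 2.46, 2.12 and 3.14 FPKM in *Pou4f3(Δ/+)*, and all *Pou4f3(Δ/+)* samples lay below all wildtype samples (log2 fold change -0.46, SE 0.14, edgeR unadjusted p = 0.009, adjusted p = 0.643). The main transcript of *Jag2* held most of the gene's counts, so its values repeat the same observation. That transcript was at 2.38 ± 0.231 FPKM in wildtype samples and 1.81 ± 0.0721 in *Pou4f3(Δ/+)* (SD, n = 3). Of the 20 tested genes of a hair cell marker list, *Pou4f3* among them, none had an unadjusted p under 0.05. The summed FPKM of all 21 genes of that list was 124, 127 and 133 in wildtype samples and 109.8, 122 and 122 in *Pou4f3(Δ/+)*, and these did not overlap. Gene by gene the list did not lean that way: of the 20 tested, 10 were higher and 10 lower. Their mean log2 CPM differed by 0.01 between the genotypes.

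*Dll4*, a ligand best known from the tips of growing blood vessels, was at 1.23, 1.69 and 1.31 FPKM in wildtype samples and 0.54, 0.55 and 0.76 FPKM in *Pou4f3(Δ/+)*, from 54, 62 and 57 counts and from 36, 32 and 42 counts (log2 fold change -0.63, SE 0.26, edgeR unadjusted p = 0.036, adjusted p = 0.643). Its genotypes did not overlap either. The FPKM differed more than the counts because a second *Dll4* transcript had 5.8 to 6.4 counts in each wildtype sample and 0 in each *Pou4f3(Δ/+)* sample. Of 10 blood endothelial markers none had an unadjusted p under 0.05, and their summed FPKM was 148 to 164 in wildtype samples and 145 to 154 in *Pou4f3(Δ/+)*. The other ligands that could be tested were *Dll1* (log2 fold change -0.15, SE 0.40) and *Dlk2* (log2 fold change -0.28, SE 0.49), both with genotypes that overlapped, and *Dll3* and *Dlk1* had at most 2 counts.

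*Notch3*, a receptor of smooth muscle cells and pericytes, was at 3.12, 4.47 and 4.26 FPKM in wildtype samples and 3.33, 2.94 and 3.19 FPKM in *Pou4f3(Δ/+)*. Wildtype replicate 3 lay among the *Pou4f3(Δ/+)* samples, so the genotypes overlapped (log2 fold change -0.32, SE 0.14, edgeR unadjusted p = 0.044, adjusted p = 0.643). The summed FPKM of 8 smooth muscle and pericyte markers was 111 to 138 in wildtype samples and was 93.5, 86.2 and 125 in *Pou4f3(Δ/+)* replicates 1, 2 and 3, and its part in the value of *Notch3* was not tested. *Notch2*, the most abundant of the receptors, was at 18.3 ± 1.06 FPKM in wildtype samples and 18.6 ± 1.35 FPKM in *Pou4f3(Δ/+)*.

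**Figure D3:**
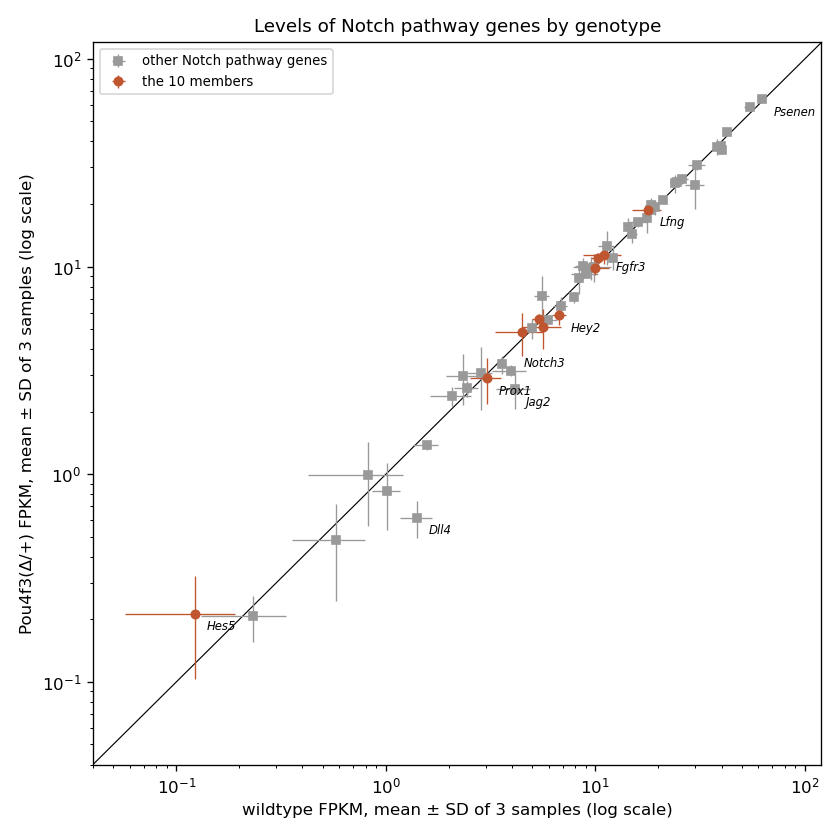
Mean FPKM in *Pou4f3(Δ/+)* against wildtype, both on log axes with SD over 3 samples, for the 10 members (orange circles) and the other Notch pathway genes with a mean above 0 in both genotypes (grey squares); the line marks equal levels. The genes follow the line from *Hes5*, below 1 FPKM, to *Psenen*, at 62.2 and 64.0 FPKM, with *Dll4* and *Jag2* below it.

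Between the receptor and the effectors, none of the glycosyltransferases, proteases, endocytosis and ubiquitin genes and nuclear cofactors of the list had an unadjusted p under 0.05 by edgeR. *Psenen*, a subunit of the gamma-secretase that cuts Notch, was the most abundant gene of the list at 63.1 FPKM on average, followed by *Adam10*, the protease of the cut outside the cell (56.6), and *Snw1*, a nuclear cofactor (43.6), and *Dtx3*, a Deltex family member, was also among the most abundant (38.2). The log2 fold changes of these 4 genes were 0.04, 0.09, 0.06 and -0.15, with *Adam10* higher and *Dtx3* lower on CPM in all 3 *Pou4f3(Δ/+)* samples than in any wildtype sample, and neither with an unadjusted p under 0.05. In all, 5 of the 43 genes had genotypes that did not overlap on CPM, against 12.7% of all genes: *Adam10* above wildtype, and *Jag2*, *Dll4*, *Dtx3* and *Dtx4* below it, *Dtx4* being named after its values were seen. *Rbpj*, the DNA-binding partner of the Notch intracellular part, was at 20.8, 21.0 and 21.4 FPKM in wildtype samples and 21.1, 20.3 and 21.3 FPKM in *Pou4f3(Δ/+)*. These were among the steadiest values of the pathway, with a log2 fold change of -0.03 (SE 0.06, edgeR adjusted p = 0.911). Of 6 further effectors or targets, *Hes6*, *Heyl* and *Nrarp* could be tested, with log2 fold changes of 0.13, 0.04 and 0.19 and genotypes that overlapped, while *Hes2* and *Hes3* had 0 counts and *Hes7* had 4 to 11.

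In the list of 15 further supporting cell genes all passed the filter, and edgeR gave 0 with an unadjusted p under 0.05. Of these 6 were higher and 9 lower, with a median log2 fold change of -0.06, which was 0.058 without *Pou4f3(Δ/+)* replicates 1 and 2. *Sox9*, a transcription factor of the same cells as *Sox2*, was at 17.1, 21.8 and 24.6 FPKM in wildtype samples and 22.6, 22.1 and 25.1 FPKM in *Pou4f3(Δ/+)*. Its lowest sample was wildtype replicate 3, which was also the lowest in *Sox2*, and the other 5 overlapped (log2 fold change 0.13, SE 0.12, edgeR adjusted p = 0.792). The mean log2 CPM of the list was lowest in *Pou4f3(Δ/+)* replicate 1 and highest in *Pou4f3(Δ/+)* replicate 3.

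*Fgfr3* was set beside 15 other genes of fibroblast growth factor signalling, of which 13 could be tested. By edgeR 0 had an adjusted p under 0.05. At an unadjusted p under 0.05 there were 2 of 13, where 7.64% of all genes passed in either direction. Both were lower, where 4.14% of all genes were lower at that threshold. *Fgfr2*, a receptor of the same family, was at 46.6, 47.5 and 46.6 FPKM in wildtype samples and 38.9, 38.9 and 46.8 FPKM in *Pou4f3(Δ/+)* (log2 fold change -0.18, SE 0.07, edgeR unadjusted p = 0.040, adjusted p = 0.643). *Pou4f3(Δ/+)* replicates 1 and 2 were low, and replicate 3 was level with wildtype on the FPKM scale. *Etv1*, a transcription factor that this signalling induces, was at 6.35, 6.96 and 6.91 FPKM in wildtype samples and 6.49, 5.66 and 6.29 in *Pou4f3(Δ/+)* (log2 fold change -0.19, SE 0.08, edgeR unadjusted p = 0.047, adjusted p = 0.643). On CPM the genotypes did not overlap for *Fgfr2* and *Etv1*, as was the case, with lower values, for 6.59% of all genes. In total 2 of the 13 were higher and 11 lower, where 49.4% of all genes were higher, with a median log2 fold change of -0.07. With 1 sample left out at a time that median was -0.16 to -0.087, lowest without *Pou4f3(Δ/+)* replicate 1. The ligand genes *Fgf8* and *Fgf20* had 0 counts in every sample, and a count of 0 allows up to 0.170 to 0.210 FPKM, depending on the sample, for a transcript of 1 kb, counting error only.

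**Figure D4:**
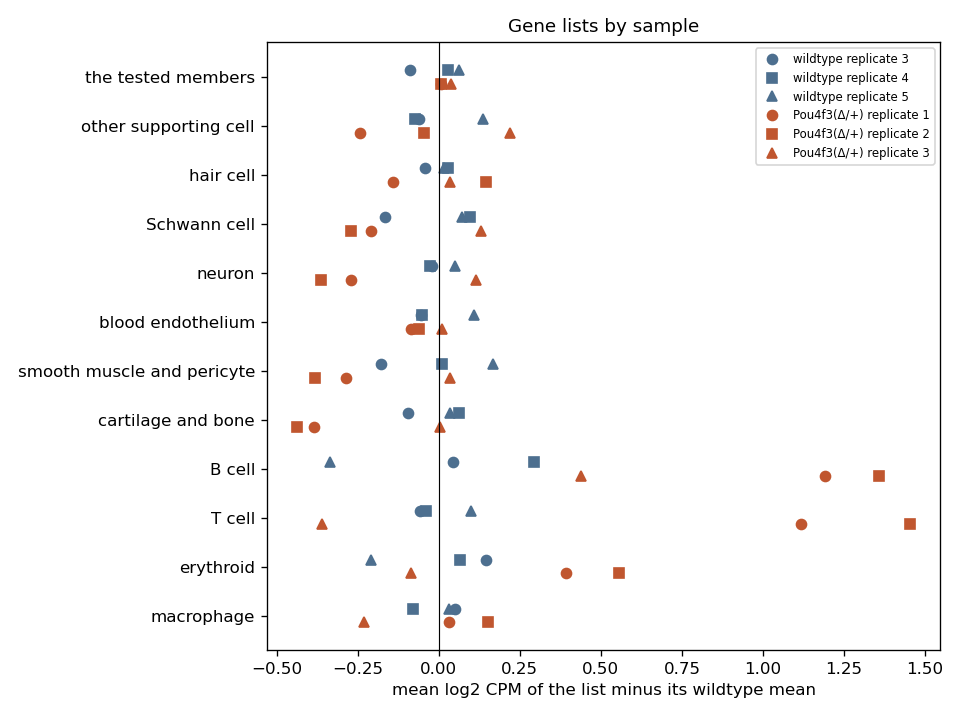
Mean log2 CPM of each gene list in each sample, minus the wildtype mean of that list (horizontal axis), for wildtype (blue) and *Pou4f3(Δ/+)* (orange) samples; the marker shape gives the replicate. The 9 tested members stay near 0 in all 6 samples, while the B cell, T cell and erythroid lists stand out in *Pou4f3(Δ/+)* replicates 1 and 2.

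The plot of lists by sample sets the members beside the lists of other cell types. The mean log2 CPM of the 9 tested members was 4.41 to 4.56 in wildtype samples and 4.50 to 4.53 in *Pou4f3(Δ/+)*, and the difference of the means was 0.02. It was also small for the macrophage (-0.02), other supporting cell (-0.02), other Notch pathway (-0.04), neutrophil (-0.04) and blood endothelial (-0.05) lists. For the B cell markers that difference was 1.00 and for 6 T cell markers it was 0.74. The summed FPKM of the T cell markers was 22.3, 26.6 and 8.31 in *Pou4f3(Δ/+)* replicates 1, 2 and 3 and 9.39 to 11.3 in wildtype. The mean log2 CPM of 10 Schwann cell markers differed by -0.12, of 8 neuron markers by -0.17, of the 7 tested smooth muscle and pericyte markers by -0.21 and of 9 cartilage and bone markers by -0.27, in each case with *Pou4f3(Δ/+)* replicates 1 and 2 as the 2 lowest samples. The 20 hair cell markers that were tested differed by 0.01 in the same measure, while the summed FPKM of the list was lower in each *Pou4f3(Δ/+)* sample than in any wildtype sample. With *Pou4f3(Δ/+)* replicates 1 and 2 left out, 0 members had an adjusted p under 0.05, and the signs of *Prox1*, *Lfng* and *Hes1* turned.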

How the data were processed

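RNA-seq was performed on total RNA of cochleae from wildtype and *Pou4f3(Δ/+)* mice, 3 samples each. Per the labels, libraries were made after poly(A) selection or rRNA removal, and the aligner, counter and strand setting are not given in the sources used here. Each deposited table of the authors holds 2 measures of every transcript in 1 sample, an expected count (82.2% of those above 0 are not whole) and an FPKM value normalised to transcript length and depth. The submitters' processing notes name mm8 and DESeq2. The files list 128603 Ensembl transcripts without coordinates, so positions and transcript types came from GENCODE M21 (GRCm38) by identifier. Date-like symbols, left by a spreadsheet, stood on 172 transcripts, none of them of a gene named here.

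Counts and FPKM were summed per symbol, and counts were rounded to whole numbers. Genes passing filterByExpr (minimum count 10, minimum total 15) were tested by genotype with edgeR 4.0.16's quasi-likelihood test after TMM scaling, with Benjamini-Hochberg adjustment over all of them. Transcripts were tested likewise. An adjusted p under 0.05 counted as a call. Intervals are of 95%. DESeq2 1.42.0 and limma 3.58.1 (on log2(FPKM + 0.5)) served as alternatives, in R 4.3.3. CPM used TMM library sizes, and means of log2 CPM used a prior count of 2. A count of 3 per sample was taken as the floor of detection. The depth of 14295069 to 17696784 counts per sample left *Hes5* alone of the members below the filter, and floors cover counting error only.

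The members and gene lists were chosen with earlier results of these data known. All 10 members are named, with the main transcript of those tested. Of the other Notch, supporting cell and FGF lists, those with an unadjusted p under 0.05, the 5 most abundant Notch genes, *Pou4f3*, *Atoh1*, *Sox9* and *Rbpj* are named by rule, and other names complete a count or a role. Of the abundant Notch genes, 1 is not reported here. The alternatives were DESeq2 size factors, DESeq2, no filter, limma at 3 pseudocounts, leaving out each sample, and leaving out *Pou4f3(Δ/+)* replicates 1 and 2.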

Additional observations from a re-analysis of the deposited data

How the results depend on the processing

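Across the 13 alternatives, 0 members and 0 genes of the other Notch, supporting cell and FGF lists reached an adjusted p under 0.05. *Fgfr3*, *Notch1*, *Hey1*, *Hey2*, *Jag2*, *Dll4*, *Notch3*, *Fgfr2*, *Etv1*, *Rbpj* and *Sox9* kept their sign in all 13, which reuse the same 6 samples. Sizes moved more: the log2 fold change of *Sox9* was 0.0034 without wildtype replicate 3. Without wildtype replicate 5 it was 0.040 for *Notch1* and 0.083 for *Fgfr3*. Without *Pou4f3(Δ/+)* replicates 1 and 2 it was -0.34 for *Dll4* and -0.072 for *Fgfr2*. With 1 sample left out the edgeR adjusted p of *Jag2* was 0.189 to 0.963. The count of called genes over the whole table was 64 with DESeq2, 9 without a filter and 6 without *Pou4f3(Δ/+)* replicates 1 and 2. Leaving out 1 sample at a time gave 0 to 193, with 193 without *Pou4f3(Δ/+)* replicate 3 and 3 without wildtype replicate 4. Called transcripts numbered 130 with DESeq2, 1 without a filter and 0 to 3 with 1 sample left out, with 3 without wildtype replicate 3 and 1 without *Pou4f3(Δ/+)* replicate 3. The count of members whose genotypes did not overlap was 0 to 3 with 1 sample left out (1 without wildtype replicate 3, 3 without wildtype replicate 4, 2 without *Pou4f3(Δ/+)* replicate 2 and 2 without *Pou4f3(Δ/+)* replicate 3) and 3 without *Pou4f3(Δ/+)* replicates 1 and 2, where fewer samples make separation more frequent. The median log2 fold change of the FGF list ranged from -0.16 to -0.087 with 1 sample left out, lowest without *Pou4f3(Δ/+)* replicate 1.

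Without *Pou4f3(Δ/+)* replicates 1 and 2, the log2 fold change was 0.14 for *Prox1*, -0.26 for *Lfng* and 0.036 for *Hes1*, and the lone remaining sample is assumed to vary like the wildtype ones. With 1 sample left out at a time, log2 fold changes that turned sign ranged from -0.045 to 0.33 for *Sox2*, -0.24 to 0.045 for *Prox1*, -0.13 to 0.12 for *Jag1*, -0.057 to 0.21 for *Lfng*, -0.11 to 0.13 for *Hes1* and -0.38 to 0.10 for *Pou4f3*. For main transcripts they ranged from -0.051 to 0.34 for Sox2-201, -0.066 to 0.17 for Jag1-201, -0.094 to 0.17 for Hes1-201, -0.067 to 0.23 for Lfng-201 and -0.41 to 0.061 for Fgfr3-217. The cause of these turns was not tested. No paired analysis was possible because the genotypes share only replicate number 3.

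The limits are 3 samples per genotype, whole tissue in place of isolated supporting cells, and counts of *Hes5* near the floor.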

Other observations

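*Mfng*, which encodes Manic fringe, a relative of *Lfng* outside the named genes, was singled out with its values known and stood at 5.92, 5.05 and 5.71 FPKM in wildtype samples and 6.57, 9.22 and 5.73 FPKM in *Pou4f3(Δ/+)*. It was highest in *Pou4f3(Δ/+)* replicates 2 and 1, the samples with the highest B cell markers, and its log2 fold change was 0.35 (SE 0.21, edgeR adjusted p = 0.691). The third fringe gene, *Rfng*, was at 12.2, 12.4 and 11.7 FPKM in wildtype samples and 10.3, 12.6 and 10.04 FPKM in *Pou4f3(Δ/+)* (log2 fold change -0.13, SE 0.12), with replicate 2 above the wildtype samples and the other *Pou4f3(Δ/+)* samples below them.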
